A study of Homo sapiens with 18 samples.

Results

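The genes described here are SMARCAL1, the enzymes that work beside it at stalled replication forks, and the single-strand binding complex RPA. They were the 10 listed symbols SMARCAL1, ZRANB3, HLTF, RPA1, RPA2, RPA3, BOD1L1, RAD52, PARP1 and WRN, chosen by name, and all 10 were in both count tables, of 57120 symbols in the TruSeq table and 44267 in the PLATE-seq table. The libraries came from MDA-MB-436, an established human breast adenocarcinoma line that is triple-negative. TruSeq stranded libraries of total RNA were made from the group labelled Control (3 libraries) and from SMARCAL1 knockout clone 1 (3 libraries). PLATE-seq, in which polyadenylated RNA is barcoded well by well in a plate and sequenced as a pool, covered 6 groups of 2 libraries: a Control, SMARCAL1 knockout clones 1, 2 and 3, the siRNA_Control, and siRNA_SMARCAL1, in which a small interfering RNA was directed at the SMARCAL1 transcript. Per the labels, all 8 groups were grown in the same serum-supplemented DMEM, with no treatment named beyond the siRNA of the 2 siRNA groups. Each knockout is a clonal line, so TruSeq compares 1 clone with its control. How SMARCAL1 was disrupted, and in which part of the gene, is not stated in the labels. Replicates are those they call biological. The series title names innate immune signalling and PD-L1 as the study's subject, and the question here is whether the fork enzymes change where SMARCAL1 is lost.

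When a replication fork stalls, its parental strands can be rewound and the nascent strands annealed to each other, which turns the fork into a 4-way junction. SMARCAL1, ZRANB3 and HLTF are DNA translocases that drive this fork reversal, and SMARCAL1 is brought to stalled forks by binding RPA, the trimer of RPA1, RPA2 and RPA3 that coats single-stranded DNA and starts ATR signalling. BOD1L1 helps keep nascent DNA from being degraded by nucleases, RAD52 anneals RPA-coated single strands, PARP1 makes poly(ADP-ribose) at DNA breaks and slows the restart of reversed forks, and WRN is a RecQ helicase and exonuclease that also binds RPA. These are proteins that act on DNA, and RNA counts give only the level of their transcripts.

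The promoter sequences of SMARCAL1, the targeted gene, and of the 3 genes whose TruSeq groups did not overlap (BOD1L1, RAD52 and PARP1) are shown because the results turn on these genes. They are from RefSeq on GRCh38.p14 and run from 250 bases before to 50 bases after an annotated start, 5′ to 3′ on the gene's strand. RefSeq windows were matched for 7 of the 10 genes. SMARCAL1 and RAD52 each have 2 starts here, and the SMARCAL1 window shown is the one that lies further upstream. Capitals mark matches on either strand to GGGCGG (the GC box bound by Sp factors), CCAAT (the CCAAT box bound by NF-Y) or ACTACAA (the beginning of an element bound by ZNF143).
SMARCAL1 promoter, chr2:216412234-216412533, plus strand: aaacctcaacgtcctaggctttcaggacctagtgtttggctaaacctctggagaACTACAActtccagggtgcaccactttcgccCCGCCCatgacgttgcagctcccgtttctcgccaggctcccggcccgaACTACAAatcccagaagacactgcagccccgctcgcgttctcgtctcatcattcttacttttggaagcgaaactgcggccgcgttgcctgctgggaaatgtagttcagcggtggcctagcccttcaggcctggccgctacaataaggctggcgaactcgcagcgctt
BOD1L1 promoter, chr4:13627676-13627975, minus strand: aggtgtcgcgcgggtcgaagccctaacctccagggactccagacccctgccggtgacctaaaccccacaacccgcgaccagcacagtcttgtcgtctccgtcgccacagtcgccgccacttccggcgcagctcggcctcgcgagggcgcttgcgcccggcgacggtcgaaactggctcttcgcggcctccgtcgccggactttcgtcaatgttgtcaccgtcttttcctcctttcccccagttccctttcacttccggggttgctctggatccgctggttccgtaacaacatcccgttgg
RAD52 promoter 1, chr12:989992-990291, minus strand: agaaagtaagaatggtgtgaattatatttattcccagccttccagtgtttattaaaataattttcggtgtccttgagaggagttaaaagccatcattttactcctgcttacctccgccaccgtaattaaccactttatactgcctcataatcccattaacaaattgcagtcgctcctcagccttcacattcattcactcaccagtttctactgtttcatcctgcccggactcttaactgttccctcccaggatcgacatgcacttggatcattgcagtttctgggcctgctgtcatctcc
RAD52 promoter 2, chr12:949645-949944, minus strand: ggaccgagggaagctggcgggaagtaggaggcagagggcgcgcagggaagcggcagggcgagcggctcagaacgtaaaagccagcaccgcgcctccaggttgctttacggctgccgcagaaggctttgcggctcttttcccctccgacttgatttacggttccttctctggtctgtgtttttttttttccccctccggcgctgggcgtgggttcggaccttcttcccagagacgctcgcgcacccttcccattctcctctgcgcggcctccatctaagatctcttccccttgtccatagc
PARP1 promoter, chr1:226408044-226408343, minus strand: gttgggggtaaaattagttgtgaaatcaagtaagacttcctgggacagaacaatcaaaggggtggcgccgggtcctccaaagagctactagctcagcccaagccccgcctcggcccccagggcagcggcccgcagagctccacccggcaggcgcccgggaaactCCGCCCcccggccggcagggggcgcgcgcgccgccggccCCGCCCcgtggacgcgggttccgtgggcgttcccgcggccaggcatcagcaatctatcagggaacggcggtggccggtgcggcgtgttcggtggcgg
The SMARCAL1 window held 2 matches to ACTACAA, which begin at bases -196 and -117 from the start, and 1 GC box at -165. The other SMARCAL1 window, which starts at 216412515, held 2 matches to CCAAT, at -70 and -42. PARP1 held 2 GC boxes, at -86 and -47. The BOD1L1 window and both RAD52 windows held no match to these 3 strings. Of 35116 windows of this length, 45.0% held GGGCGG, 34.6% held CCAAT and 2.8% held ACTACAA. The GC content was 64.3% for BOD1L1 and 70.0% for PARP1, and 61.0% and 43.0% for the RAD52 windows on chromosome 12 that start at 949645 and at 989992.

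Library totals were 10257584 to 19270648 counts in TruSeq and 807861 to 3068887 in PLATE-seq, and levels are given as CPM, which are counts scaled to a library size that was adjusted by TMM. In TruSeq, control replicates 1 and 2 and knockout replicate 1 stood apart from the other 3 libraries, with 36042 to 39068 genes detected against 28621 to 30653 and with 0.637 to 0.891% of counts from mitochondrial genes against 0.302 to 0.370%. A fit within either set of 3 has 1 library in one arm (knockout replicate 1, or control replicate 3), which is assumed to vary like the 2 libraries of the other arm, so single genes are given within a set without their p, which enters only the ranges over alternatives. Of the markers of the line, KRT8, KRT18 and VIM were high in TruSeq (514 CPM or more in each library), EPCAM lay at 1.91 to 4.20 CPM, and KRT19 was at 0 in 2 of the 6 libraries. CDH1 lay at 0.768 CPM or below in TruSeq but at 5.53 to 29.9 CPM in PLATE-seq, where KRT8 was at 8.77 to 32.2 CPM, so the assays did not give the same marker levels. ESR1 and PGR had no counts in any of the 12 PLATE-seq libraries and lay at or below 0.969 and 0.404 CPM in TruSeq. ERBB2, the third receptor listed as low in triple-negative cells, was at 37.3 to 53.5 CPM in TruSeq and 0 to 9.12 CPM in PLATE-seq. The 5 leukocyte markers summed to 14.3 to 18.7 CPM in the TruSeq controls and 7.02 to 12.1 CPM in the knockout, mostly CD14, with PTPRC at 0.290 to 2.69 CPM and at 0 in all 12 PLATE-seq libraries, and none passed the threshold. Their part in the TruSeq differences was not tested. The endothelial and fibroblast sums overlapped between the TruSeq groups. In PLATE-seq the fibroblast markers summed to 3.51 and 7.02 CPM in the siRNA_Control and 15.8 and 23.1 CPM after siRNA_SMARCAL1, all from COL1A1 with the other 4 markers at 0, and their part in the siRNA differences was not tested. Levels were compared only within an assay.

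SMARCAL1 transcript was not lower in the libraries labelled knockout than in their controls, and it was undetected in the libraries labelled siRNA_SMARCAL1. In TruSeq, BOD1L1 rose and RAD52 fell in knockout clone 1, PARP1 was lower in all 3 knockout libraries without passing the threshold, and the 3 RPA subunits, HLTF and WRN had log2 fold changes between -0.13 and 0.09. Here 9 of the 10 genes could be tested, and 2 of them passed the threshold (edgeR's quasi-likelihood test, adjusted p under 0.05 over all genes tested). That compares with 6.27% of all 17371 genes tested, and 3 of the 9 had groups that did not overlap, compared with 26.3% of all genes. At an unadjusted p under 0.05 there were 3 of the 9, beside 20.4% of all genes. The median log2 fold change of the 9 was 0.06, beside -0.00 for all genes. In bulk RNA a lower level in fewer cells and less transcript per cell cannot be told apart. The exon bases shared with other genes are 5.8% for SMARCAL1, 5.6% for RAD52, 3.7% for RPA3 and 2.8% or less for the other 7 genes.

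**Figure D1:**
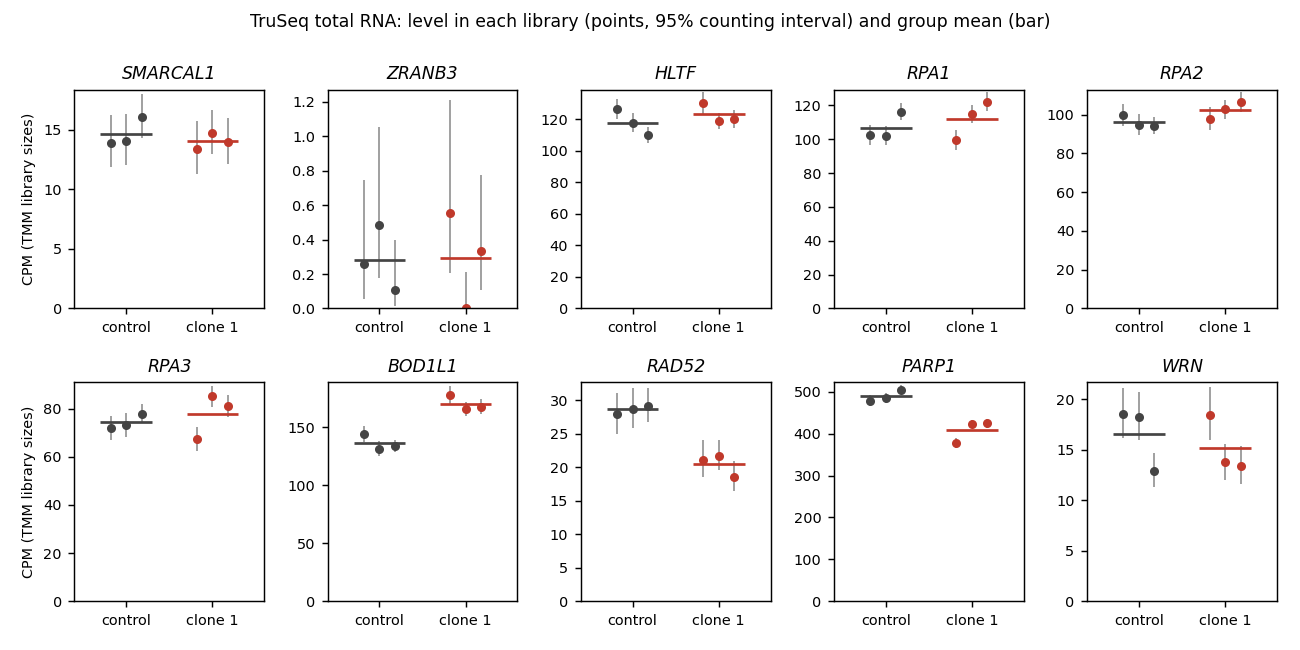
Level of each gene in the 6 TruSeq libraries in CPM (vertical axis), with the control in grey and SMARCAL1 knockout clone 1 in red. Points are libraries with their 95% counting interval and bars are group means. BOD1L1 lies higher in all 3 knockout libraries (166 to 178 CPM) than in the controls (132 to 144 CPM), and RAD52 and PARP1 lie lower in all 3.

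In PLATE-seq 7 of the 10 genes had enough counts to be tested, and none passed the threshold in any contrast. ZRANB3, RAD52 and WRN were left out by the filter on low counts. At an unadjusted p under 0.05, edgeR gave 0 of the 7 for clone 1, 0 for clone 2, 2 for clone 3, 1 for the mean of the clones and 2 for the siRNA. The shares of all genes at that level were 8.19%, 9.66%, 11.9%, 10.1% and 6.33% in the same order. DESeq2 called 1 of the 10 genes, BOD1L1, in clone 3 and none in the other contrasts. Over all genes DESeq2 called more than edgeR in each of these contrasts, with the counts given below under the dependence on processing. edgeR's share of all 8595 genes past the adjusted threshold was 0% for clone 1, 0.0349% for clone 2 and 0.663% for clone 3. It was 0.198% for the mean of the clones and 0% for the siRNA, so a count of 0 among 7 genes was near the background. The groups did not overlap for 4 of 7 genes in clone 1, compared with 39.2% of all genes, 2 of 7 in clone 2, compared with 38.3%, and 4 of 7 in clone 3, compared with 42%. They did not overlap for 2 of 7 with the clones pooled, compared with 12%, and for 2 of 7 with the siRNA, compared with 37.4%. The biological coefficient of variation was 0.330 in PLATE-seq and 0.123 in TruSeq. The 3 clones share their 2 control libraries, so their contrasts are not independent of each other. The SE and p given for the mean of the clones rest on the spread between libraries of a group. They leave out the spread between clones.

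**Figure D2:**
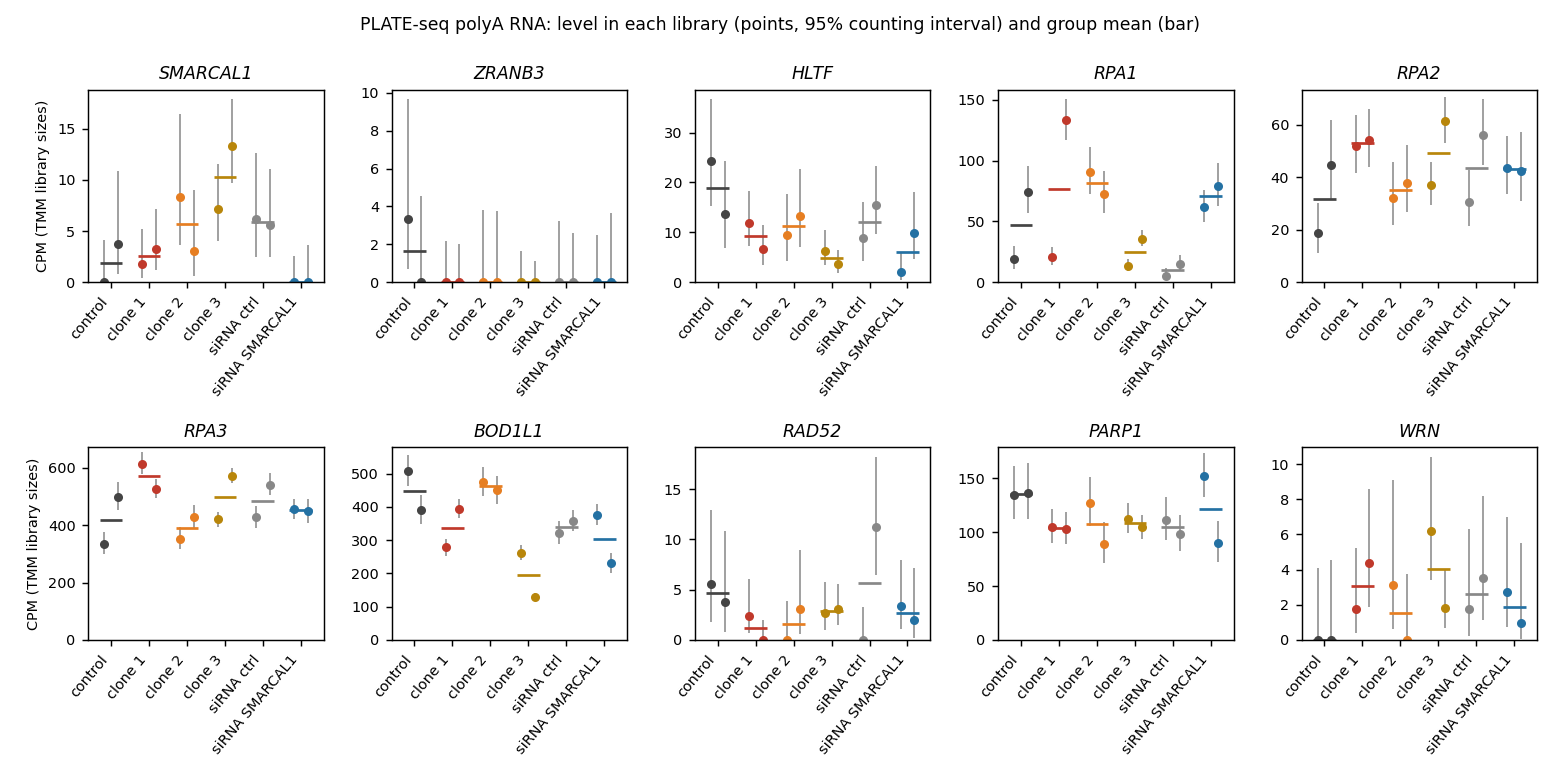
Level of each gene in the 12 PLATE-seq libraries in CPM (vertical axis) by group, with points for libraries, their 95% counting interval, and bars for group means. SMARCAL1 has no counts in the 2 libraries labelled siRNA_SMARCAL1, and RPA1 ranges from 5.26 to 133 CPM with wide gaps between replicates of a group.

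SMARCAL1 (chromosome 2, 216412414 to 216483053, plus strand, GRCh38) is the targeted gene. In TruSeq it had 163, 174 and 292 counts in the controls and 144, 254 and 211 in the knockout libraries, or 13.9, 14.0 and 16.1 CPM in the controls and 13.3, 14.7 and 14.0 CPM in the knockout. The groups overlapped, and the log2 fold change was -0.07 (SE 0.11, adjusted p = 0.791, n = 3 and 3). A gene-level count does not check a knockout that leaves the transcript in place, and since the disrupted part is not stated these counts neither bear out nor contradict the label.

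In PLATE-seq SMARCAL1 was near the limit of detection. It had 0 and 3 counts in the controls, 3 and 6 in clone 1, 8 and 3 in clone 2 and 16 and 44 in clone 3. The level was 7.11 and 13.4 CPM in clone 3, above both controls at 0 and 3.72 CPM. The fitted log2 fold change of 2.46 (SE 1.35, adjusted p = 0.487) rests on the 3 control counts and did not pass the threshold. SMARCAL1 passed the filter on low counts only through libraries of clones 2 and 3, so the clone contrasts concern a gene kept for its level there. Clone 3 also had the deepest PLATE-seq libraries and the controls the shallowest pair, and the part of depth in this difference was not tested.

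The siRNA libraries gave the clearest pattern for SMARCAL1, though at low counts, and control replicate 1 of the clones also had 0 counts without siRNA. It had 7 and 8 counts in the siRNA_Control libraries (6.14 and 5.62 CPM) and 0 and 0 in the siRNA_SMARCAL1 libraries. Setting the group total of 0 to 3 counts, the transcript was 4.84-fold lower after the siRNA. This takes the 15 siRNA_Control counts as exact and leaves out the spread between libraries, so it is not a lower bound. The unadjusted p was 0.00819 and the adjusted p 0.573. SMARCAL1 passed the filter on low counts through libraries of clones 2 and 3, where it was higher, and not through the siRNA groups.

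The effect of knockout and that of siRNA on SMARCAL1 were then compared directly, for a gene that the filter kept through libraries of the clones. The difference of the effects had an unadjusted p of 0.00527 and an adjusted p of 0.393, and 0 of the 8595 genes tested passed the threshold (0% of all genes by edgeR, 7.76% at an unadjusted p under 0.05). DESeq2 gave 16 such genes and none of the 10.

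RPA1, RPA2 and RPA3 are the large, middle and small subunits of RPA. In TruSeq RPA1 (chromosome 17, 1829702 to 1900082) was at 102, 102 and 116 CPM in the controls and 99.3, 115 and 122 CPM in the knockout libraries. RPA2 (chromosome 1, 27891524 to 27914746) was at 99.6, 94.8 and 94.2 CPM in the controls and 97.7, 103 and 106 CPM in the knockout. RPA3 (chromosome 7, 7636518 to 7718607) was at 71.9, 73.1 and 77.9 CPM in the controls and 67.2, 85.1 and 81.0 CPM in the knockout. For all 3 subunits the groups overlapped. The log2 fold changes were 0.07 (SE 0.09) for RPA1, 0.09 (SE 0.07) for RPA2 and 0.07 (SE 0.10) for RPA3, with adjusted p-values of 0.750, 0.507 and 0.760. Within the 3 libraries with more genes detected, with 1 knockout library, the values were -0.05, -0.00 and -0.12.

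In PLATE-seq RPA1 varied more between replicates than the other subunits. It was at 18.8 and 74.4 CPM in the controls, 20.8 and 133 in clone 1, 90.5 and 72.7 in clone 2, and 13.3 and 35.5 in clone 3. The replicates of the control and of clone 1 lay far apart. The test of a difference among the clones gave an unadjusted p of 0.0219 and an adjusted p of 0.312. After siRNA, RPA1 was at 61.9 and 79.1 CPM beside 5.26 and 14.7 CPM in the siRNA_Control, with no overlap. Its log2 difference of 2.76 (SE 0.71) had an unadjusted p of 0.000653, the 14th smallest of 8595, and an adjusted p of 0.323. Without the filter on low counts the adjusted p was 2.44e-05, while in the other 16 of 17 alternatives RPA1 did not pass (adjusted p up to 0.883). The siRNA_Control mean was itself the lowest of the 6 groups, and both of its libraries lay below both control libraries.

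RPA2 and RPA3 had narrower ranges. RPA2 lay between 18.8 and 61.3 CPM over the 12 PLATE-seq libraries, with 30.7 and 56.2 CPM in the siRNA_Control and 43.6 and 42.5 CPM after siRNA_SMARCAL1. RPA3 lay between 335 and 615 CPM. Both were higher in the 2 clone 1 libraries than in either control: RPA2 at 51.7 and 54.1 CPM beside 18.8 and 44.7, and RPA3 at 615 and 526 CPM beside 335 and 500. The adjusted p-values were 0.721 and 0.706, and this was not seen in clones 2 and 3, where the groups overlapped.

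HLTF and ZRANB3 are the other fork-reversal translocases. HLTF (chromosome 3, 149030127 to 149086554) was at 126, 118 and 110 CPM in the TruSeq controls and 130, 119 and 120 CPM in the knockout, a log2 fold change of 0.06 (SE 0.08, adjusted p = 0.717). In PLATE-seq it was sparser, at 24.3 and 13.6 CPM in the controls, 11.9 and 6.55 in clone 1, 9.36 and 13.3 in clone 2, and 6.22 and 3.64 in clone 3. All 6 clone libraries lay below both controls. The log2 difference of the clone mean was -1.25 (SE 0.61, adjusted p = 0.499), and that of clone 3 was -1.95 (unadjusted p = 0.0203, adjusted p = 0.310). The siRNA_Control libraries, at 8.77 and 15.4 CPM, overlapped the clones, and the siRNA_SMARCAL1 libraries lay at 2.04 and 9.89 CPM.

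ZRANB3 (chromosome 2, 135136916 to 135531236) was close to absent. It had 3, 6 and 2 counts in the TruSeq controls and 6, 0 and 5 in the knockout libraries, at most 0.556 CPM, where 3 counts correspond to 0.165 to 0.278 CPM. In PLATE-seq 1 control library had 3 counts and the other 11 libraries had none, which allows up to 0.911 to 3.72 CPM. No difference was detectable at this depth. It was tested in neither assay.

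WRN (chromosome 8, 31033801 to 31173769) was at 18.5, 18.2 and 12.9 CPM in the TruSeq controls and 18.4, 13.8 and 13.4 CPM in the knockout. The 3 libraries with more genes detected, from both groups, had the 3 highest values. The log2 fold change was -0.13 (SE 0.18, adjusted p = 0.760), and with that split as a term it was 0.04. In PLATE-seq WRN had no counts in the controls, the shallowest pair, where 3 counts correspond to 3.32 and 3.72 CPM. WRN had 14 counts or fewer in every other library, with 0 in clone 2 replicate 2, and was not tested.

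BOD1L1 (chromosome 4, 13568738 to 13627723, minus strand) was the gene of the 10 that rose. It was at 144, 132 and 134 CPM in the TruSeq controls and 178, 166 and 168 CPM in knockout clone 1. The lowest knockout library lay above the highest control. The log2 fold change was 0.32 (SE 0.07, adjusted p = 0.0268), among 3.96% of genes that rose. The estimate stayed between 0.30 and 0.36 when any 1 library was left out, but the adjusted p was 0.153, 0.0600, 0.0854 and 0.111 without control replicate 2, control replicate 3, knockout replicate 2 and knockout replicate 3. Within the libraries with more genes detected it was 0.36 and within those with fewer 0.32. Over the 13 alternatives the adjusted p ranged from 1.29e-05 to 0.153.

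PLATE-seq did not give the same direction for BOD1L1. It was at 509 and 389 CPM in the controls, 278 and 394 in clone 1, 475 and 450 in clone 2, and 263 and 128 in clone 3. In clone 1, the clone that both assays measured, the groups overlapped and the log2 difference was -0.42 (SE 0.31, adjusted p = 0.779). Clone 3 lay below both controls, with a log2 difference of -1.20 (SE 0.31, unadjusted p = 0.000789, adjusted p = 0.0826). DESeq2 gave an adjusted p of 0.0123 for it, and edgeR without the filter 0.00774. Over 17 alternatives it ranged from 0.00542 to 0.665, the lowest without clone 3 replicate 1, where the remaining clone 3 library is assumed to vary like the other groups. The test of a difference among the clones gave an adjusted p of 0.121 for BOD1L1. The siRNA libraries, at 376 and 230 CPM, overlapped the siRNA_Control at 322 and 359 CPM.

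RAD52 (chromosome 12, 912077 to 990053, minus strand) was the gene of the 10 that fell. It was at 27.9, 28.7 and 29.2 CPM in the TruSeq controls and 21.1, 21.7 and 18.6 CPM in the knockout libraries. The 2 groups did not overlap. The log2 fold change was -0.48 (SE 0.09, adjusted p = 0.0181), among 2.31% of genes that fell. Leaving out 1 library kept it between -0.53 and -0.42, with adjusted p-values of 0.0521, 0.106, 0.0566 and 0.0996 without control replicate 1, control replicate 2, knockout replicate 2 and knockout replicate 3. It was -0.43 within the libraries with more genes detected and -0.53 within those with fewer, and over the 13 alternatives the adjusted p ranged from 0.000203 to 0.106. Of its exon bases, 5.6% are shared with AC004803.1 on the same strand, so a small part of the reads cannot be assigned to RAD52 alone. In PLATE-seq it had 16 counts or fewer in each library, with 5 and 3 in the controls and 0 to 10 in the clones, and was not tested.

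PARP1 (chromosome 1, 226360691 to 226408079, minus strand) was the most abundant of the 10 in TruSeq. It was at 479, 484 and 505 CPM in the controls and 377, 422 and 424 CPM in knockout clone 1, with no overlap. The log2 fold change was -0.26 (SE 0.07, unadjusted p = 0.00548, adjusted p = 0.0692), which did not pass. With the split by genes detected as a term it was -0.30 (adjusted p = 5.15e-05), within the libraries with more genes detected -0.36 and within those with fewer -0.26. Over the 13 alternatives the adjusted p reached 0.349. The pseudogenes PARP1P1 and PARP1P2 had 59 and 3 counts over all 6 TruSeq libraries.

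PARP1 was also lower in every PLATE-seq clone library than in the controls. It was at 135 and 136 CPM in the controls, 105 and 103 in clone 1, 127 and 89.1 in clone 2, and 112 and 104 in clone 3. The log2 differences were -0.38, -0.33 and -0.32 for clones 1, 2 and 3, and -0.35 for their mean (SE 0.25, adjusted p = 0.683). The siRNA_Control libraries, at 111 and 98.3 CPM, lay within the range of the clones, and against them the clone mean differed by 0.03, a comparison chosen after the data were seen. By its label the siRNA_Control differs from the clones in siRNA treatment as well as in knockout. Here and below, a clone difference against it mixes both. After siRNA_SMARCAL1 the 2 libraries lay on either side of that control, at 152 and 90.0 CPM.

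**Figure D3:**
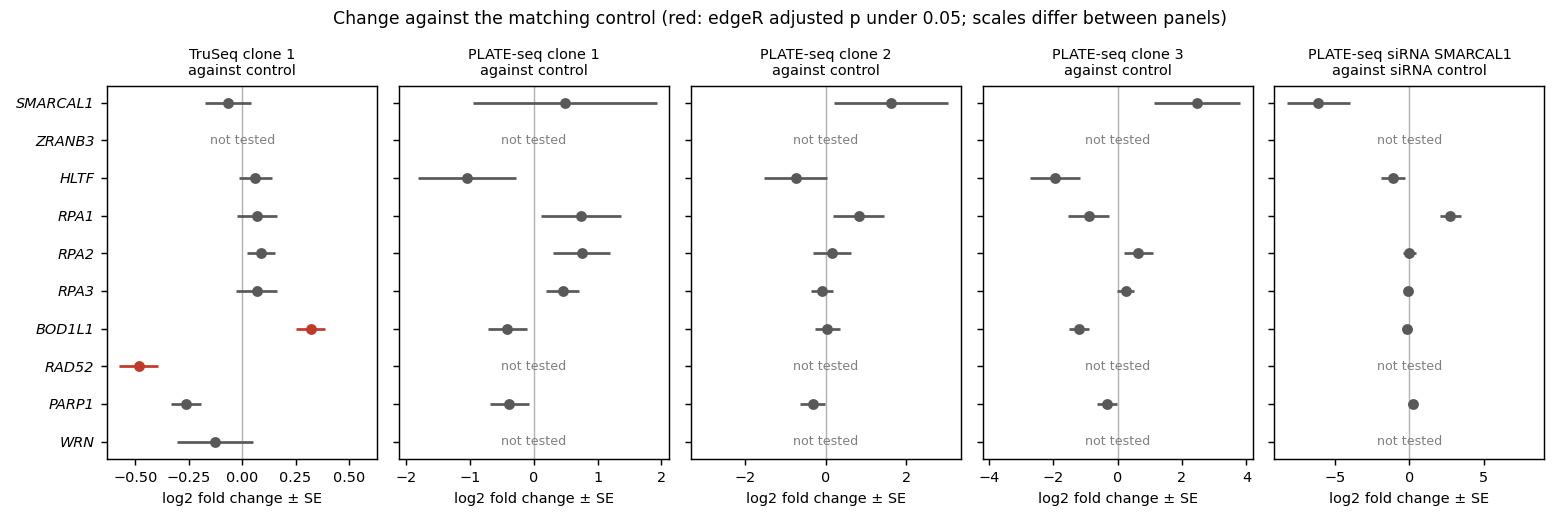
Log2 fold change (horizontal axis, bars are 1 SE) of each gene against its matching control in TruSeq and in 4 PLATE-seq contrasts, on scales that differ between panels. Red marks an edgeR adjusted p under 0.05, which BOD1L1 (0.32) and RAD52 (-0.48) reach in TruSeq and no gene reaches in PLATE-seq.

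The calls in TruSeq depended on single libraries. Under the alternatives run, BOD1L1 stayed positive and RAD52 and PARP1 stayed negative in every setting. BOD1L1 and RAD52 each lost the call in 4 of the 6 settings that left out a library. PARP1 passed in 4 of 13 alternatives, of which 2 are the fits within a set of 3 libraries, with 1 library in one arm.

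**Figure D4:**
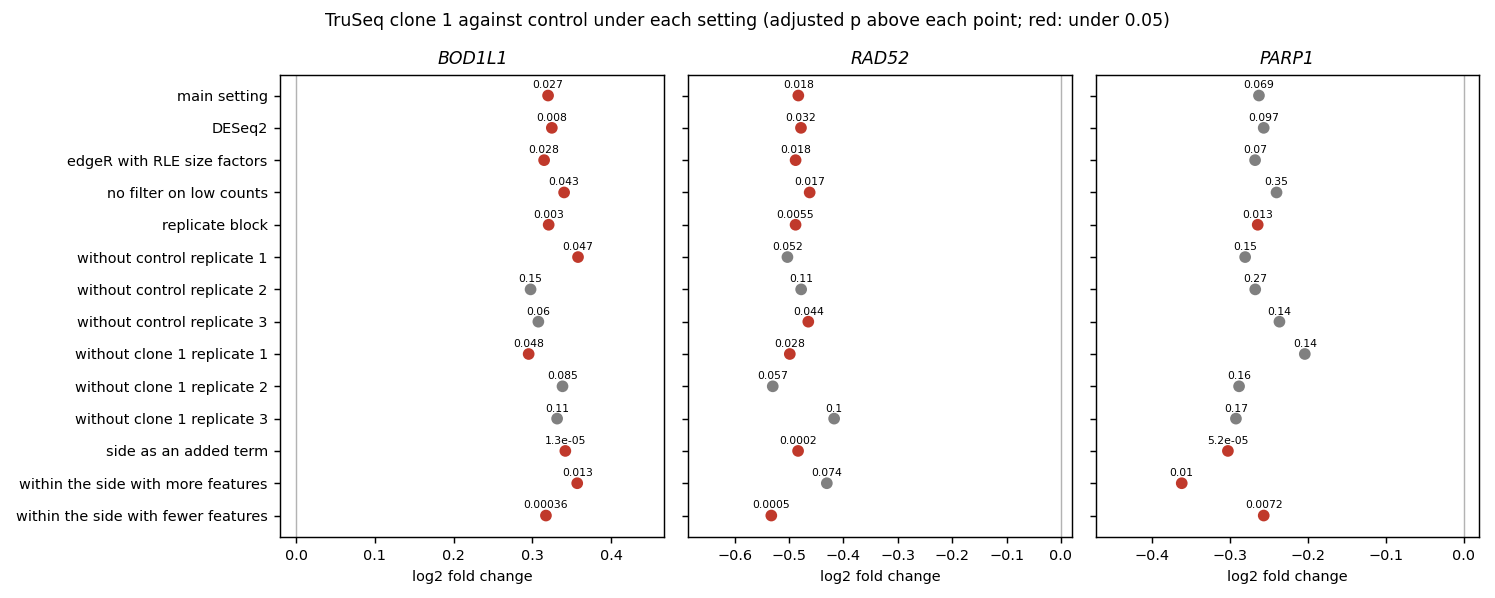
Log2 fold change (horizontal axis) of BOD1L1, RAD52 and PARP1 in TruSeq under each processing setting (vertical axis), with the adjusted p above each point and red for those under 0.05. No point crosses 0, while the adjusted p moves to both sides of 0.05 for all 3 genes. The fits within a side have 1 library in one arm.

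Differences among the 3 clones and between knockout and siRNA were tested in PLATE-seq for the 7 genes with enough counts. None of the 7 differed among the clones (edgeR, smallest adjusted p 0.121, for BOD1L1), where 0.71% of all genes did and 11.3% at an unadjusted p under 0.05. At that unadjusted level 2 of the 7 did, BOD1L1 and RPA1. DESeq2 called 1 of the listed genes, and over all genes it also called more than edgeR. PARP1 had the largest unadjusted p of the 7 in this edgeR test, 0.976, which does not measure how alike the clones are. None differed between knockout and siRNA effects by edgeR or DESeq2, with SMARCAL1 and RPA1 at unadjusted p-values of 0.00527 and 0.00740, the latter with a difference of -2.54 and an adjusted p of 0.434.

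Related fork genes were read from 4 lists of 90 genes in all, the 10 genes included: fork remodellers, fork protection, fork nucleases with their recruiters, and RPA with the ATR checkpoint. In TruSeq 86 were tested, of which 1 rose (BOD1L1) and 4 fell (RAD51C, RTEL1, RAD54L and RAD52), compared with 3.96% and 2.31% of all genes. Without the 10 genes, 77 were tested, 0 rose and 3 fell by edgeR, 25 had an unadjusted p under 0.05 (20.4% of all genes did), and 28 had positive and 49 negative log2 fold changes. The median was -0.05, beside -0.00 for all genes. Per list the medians were -0.09 for 24 remodellers tested, -0.04 for 23 fork protection genes, -0.02 for 20 nucleases and recruiters and -0.05 for 20 genes of RPA and ATR signalling, and 1 gene stands in 2 of the lists. The last 2 lists held no gene past the threshold. At an unadjusted p under 0.05 the 4 lists held 11, 7, 6 and 4 genes in that order, beside 20.4% of all genes.

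RAD51C, a homologous recombination gene that also acts in fork protection, was at 29.3, 31.2 and 29.6 CPM in the TruSeq controls and 19.9, 20.3 and 19.5 CPM in the knockout. It fell by 0.59 on the log2 scale (SE 0.08, adjusted p = 0.00499), and without control replicate 2 the adjusted p was 0.0516 (9.86e-06 to 0.0516 over 13 alternatives). In PLATE-seq RAD51C was at 121 and 107 CPM in the controls and 38.2 to 83.2 CPM in the 6 clone libraries, with a clone-mean log2 difference of -0.93 (adjusted p = 0.183). Against the siRNA_Control, at 59.6 and 59.7 CPM, that difference was -0.00. As with PARP1, the control of the clones was higher than the siRNA_Control, and the size of the difference moved with the control used. The siRNA_Control is not an equal substitute, since the clones had no siRNA by their labels.

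RAD54L, a translocase of homologous recombination, fell by 0.42 (SE 0.09, adjusted p = 0.0323), with 25.1% of its exon bases shared with other genes, and its adjusted p was 0.0857 by DESeq2 and 0.0708 without the filter, in a range of 0.00226 to 0.162 over 13 alternatives. RTEL1, a helicase that unwinds D-loops and G-quadruplexes, fell by 0.63 (SE 0.13, adjusted p = 0.0259), but 70.2% of its exon bases are shared with other genes, mostly the readthrough gene RTEL1-TNFRSF6B, so its counts are uncertain. Of the named genes that missed the threshold, CTC1, a telomere replication factor, was at 0.32 (adjusted p = 0.0667) and KMT2C, a histone methyltransferase that recruits MRE11 to forks, at 0.27 (adjusted p = 0.0523). EME1, the partner of the MUS81 nuclease, was at -0.48 (adjusted p = 0.0525) and RFWD3, a ubiquitin ligase for RPA, at -0.24 (adjusted p = 0.0925). PRIMPOL, which reprimes beyond lesions, was at 0.32 (adjusted p = 0.231). With the split by genes detected as a term, CTC1, KMT2C, EME1 and RFWD3 passed, at adjusted p-values of 0.00775, 0.000483, 0.0155 and 0.000115. In PLATE-seq the clone-mean log2 difference was 0.40 for RAD54L (SE 1.08) and -0.24 for CTC1 (SE 0.78), opposite in sign to TruSeq and not past the threshold. There KMT2C was at 35.4 and 26.1 CPM in the controls and 3.07 to 16.6 CPM in the 6 clone libraries, a clone-mean log2 difference of -1.48 (adjusted p = 0.255), with a sign opposite to that in TruSeq. The siRNA_Control libraries, at 11.4 and 14.0 CPM, lay within the range of the clones, and against them the difference was -0.21.

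**Figure D5:**
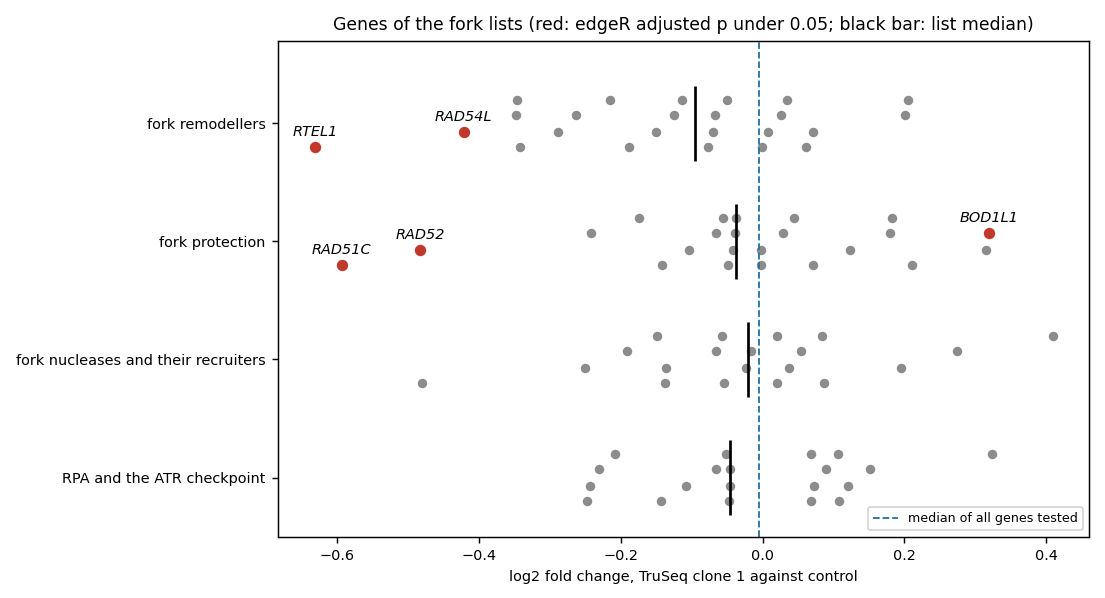
Log2 fold change in TruSeq clone 1 against control (horizontal axis) for each tested gene of the 4 fork lists (rows), with red and names for edgeR adjusted p under 0.05, black bars for list medians and a dashed line for the median of all genes. BOD1L1 lies to the right at 0.32 and RAD51C, RTEL1, RAD54L and RAD52 to the left.

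In PLATE-seq 65 genes of the 4 lists were tested and none passed in any of the 5 contrasts, with 4, 7, 9, 8 and 5 at an unadjusted p under 0.05 by edgeR for clone 1, clone 2, clone 3, their mean and the siRNA, beside 8.19%, 9.66%, 11.9%, 10.1% and 6.33% of all genes. After the siRNA 21 had positive and 44 negative log2 differences with a median of -0.30, beside -0.02 for all genes. Among 20 proliferation genes tested in TruSeq the median was -0.00. MCM7, a subunit of the replicative helicase, was the 1 of the 20 past the threshold (0.53, adjusted p = 0.0192), compared with 6.27% of all genes. It lost the call in 4 of the 6 settings that left out a library, with an edgeR adjusted p of up to 0.134. MCM7 was named after its values were seen.

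Levels of different genes were compared per kilobase of exon in the TruSeq controls. PARP1 was highest at 68.2 ± 1.88 CPM per kb (SD, n = 3), followed by RPA2 at 47.6 ± 1.46 and RPA3 at 23.0 ± 0.993. HLTF at 19.6 ± 1.36 and RPA1 at 19.5 ± 1.48 did not differ beyond their spread. BOD1L1 at 8.61 ± 0.427 and RAD52 at 6.83 ± 0.154 came next. WRN at 2.94 ± 0.559 and SMARCAL1 at 2.88 ± 0.238 did not differ beyond their spread, and ZRANB3 was lowest at 0.0311 ± 0.0207 CPM per kb. SMARCAL1 was below each RPA subunit per length. Per kilobase of the longest coding transcript, over all 6 TruSeq libraries, SMARCAL1 at 4.08 to 4.91 CPM lay above WRN at 2.48 to 3.55 CPM, so the order of these 2 depends on the length used.

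Over the 6 TruSeq libraries the genes whose log2 CPM was most like that of SMARCAL1 were WDR77 (r = 0.994), DYRK4 (r = 0.991) and TTC25 (r = 0.989). Of the other listed genes tested, HLTF had the most opposite pattern, at r = -0.906, and PARP1 the most similar, at 0.617. These are descriptions over 6 libraries that share the split by genes detected, and SMARCAL1 itself ranged only from 13.3 to 16.1 CPM.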

How the data were processed

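RNA was measured in 18 MDA-MB-436 libraries, 6 TruSeq and 12 PLATE-seq. The deposited values are raw counts for each gene symbol. The submitters' processing notes name STAR, HTSeq and the build hg38 for the authors' alignment and counting. The versions, annotation release and strand setting are not given in the sources used here, so reads of overlapping or antisense neighbours could not be told apart. The titles and the column names give MDA-MB-436, while the PLATE-seq samples' line tags count upward, MDA-MB-437 being the first and MDA-MB-448 the last, which was taken as a slip. PLATE-seq spike-ins (92 entries, at most 0.0534% of a library's counts) were left out.

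Each assay was fitted apart with edgeR 4.0.16 in R 4.3.3: a filter on low counts (filterByExpr, with 17371 TruSeq and 8595 PLATE-seq genes kept), TMM scaling, and the quasi-likelihood F test with group as the only term. Two-sided p-values were adjusted over every gene tested (Benjamini-Hochberg), and the threshold was 0.05. "Rose", "fell" and "passed" refer to this threshold. The residual degrees of freedom were 4 in TruSeq and 6 in PLATE-seq. SE is the absolute log2 fold change over the root of F. Intervals and floors (3 counts, or 0.165 to 0.278 CPM in TruSeq and 0.911 to 3.72 CPM in PLATE-seq) cover counting error only. DESeq2 1.42.0, RLE scaling, no filter, fits of single contrasts, a replicate block, the split of the TruSeq libraries by genes detected and leaving out each library were alternatives.

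Gene coordinates and exon overlaps are from GENCODE release 29 on GRCh38, by symbol. The 10 genes and the gene lists were chosen with earlier results of these data known. Named genes were the 10, every fork-list gene past the threshold in any contrast, the 2 others per list with the smallest TruSeq p, and the 3 genes most like SMARCAL1 over the TruSeq libraries. The test was also run on simulated counts. The changes planted there were larger than those of the 10 genes and the fork-list genes in TruSeq, so that run does not bear on changes of this size. The replicate numbers were not taken to pair libraries: same-numbered TruSeq libraries had deviations correlated at 0.575, -0.273 and 0.376. In PLATE-seq these correlations lay between -0.058 and 0.056, although the spike-in share there split by replicate number.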

Additional observations from a re-analysis of the deposited data

Results flagged for a closer look

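The log2 difference of SMARCAL1 in PLATE-seq had opposite signs in the clones and after siRNA. It was 0.48, 1.62 and 2.46 in clones 1, 2 and 3. Against the siRNA_Control in place of the control the clone mean was -0.14, so the sign in the clones turned with the choice of control. By its label the siRNA_Control also differs from the clones in siRNA treatment. Of the clones the largest value was that of clone 3, where both libraries lay above both controls. SMARCAL1 passed the filter on low counts only through libraries of clones 2 and 3. The value was -6.14 after siRNA against the siRNA_Control, where both siRNA libraries had no counts. The value of -6.14 is a fitted value against a group at 0 and is no bound on the fold. The difference between clone 3 alone and the siRNA was not tested, and for the mean of the clones the difference of the effects had an edgeR adjusted p of 0.393.

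BOD1L1 had opposite signs in TruSeq clone 1 and PLATE-seq clone 3. It was 0.32 in TruSeq clone 1, with all 3 knockout libraries above the controls, and -1.20 in PLATE-seq clone 3, with both libraries below the controls. This difference was not tested, since the assays were fitted apart, and the clones differ. In PLATE-seq the value was -0.42 for clone 1 and 0.04 for clone 2, both with overlapping groups.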

How the results depend on the processing

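Over 62 log2 fold changes and 984 alternative values, 906 kept their direction and their side of the threshold, 24 lost the call, 24 gained it and 30 changed sign. None of the values that changed sign was past the threshold in the first place. The cause of each change was not tested. In PLATE-seq SMARCAL1, RAD52, WRN and ZRANB3 were at or near 3 counts in several libraries.

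Genes past the threshold in TruSeq numbered 1089, and 2387 with the replicate block, 3793 with the split by genes detected as a term, 2517 within the libraries with fewer genes detected, and 199 to 1145 with 1 library left out. Of the 10 genes 0 to 2 passed with 1 library left out. In PLATE-seq the counts by edgeR, by DESeq2 and without the filter were 0, 20 and 36 for clone 1, 3, 33 and 61 for clone 2, 57, 120 and 156 for clone 3, 17, 46 and 83 for the mean of the clones, 0, 13 and 22 for the siRNA, 61, 147 and 230 among the clones, and 0, 16 and 44 for knockout against siRNA effects. With only the groups of the contrast in the fit the counts were 1 for clone 2, 3 for clone 3 and 1 for the siRNA. With the replicate block 2 genes differed between knockout and siRNA effects. Leaving out 1 library gave 0 to 7, 3 to 13, 7 to 131, 5 to 52, 0 to 2, 17 to 141 and 0 to 15 for these 7 comparisons in the same order. Of the 10 genes, 1 passed in clone 3 by DESeq2 and without the filter (0 to 1 with 1 library left out), 1 after the siRNA without the filter, 1 by DESeq2 and 2 without the filter among the clones (0 to 1 with 1 library left out), and 1 for knockout against siRNA effects without the filter.

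Values that changed sign in TruSeq were RPA1, at -0.0046 with the split as a term and -0.049 within the libraries with more genes detected, RPA2, at -0.00011 within those, RPA3, at -0.12 within those, and WRN, at 0.038 with the split as a term and 0.066 within the libraries with fewer genes detected. With 1 library left out SMARCAL1 ranged from -0.11 to 0.011 and RPA3 from -0.0022 to 0.17. With the siRNA_Control in place of the control, the clone mean was -0.14 for SMARCAL1, -0.012 for RPA3, 0.028 for PARP1 and -0.0049 for RAD54L. RPA2 after the siRNA was 0.054 with the replicate block. The other sign changes came from leaving out 1 PLATE-seq library. For clone 1 the ranges were -0.52 to 5.02 for SMARCAL1 and -1.14 to 2.05 for RPA1. For clone 2 they were -0.35 to 0.89 for RPA2, -0.36 to 0.22 for RPA3 and -0.14 to 0.25 for BOD1L1. For clone 3 RPA1 ranged from -1.78 to 0.41. For the clone mean RPA1 ranged from -0.46 to 1.52, RPA3 from -0.050 to 0.53 and CTC1 from -0.76 to 0.65. After the siRNA the ranges were -0.38 to 0.49 for RPA2, -0.26 to 0.080 for RPA3, -0.56 to 0.14 for BOD1L1 and -0.22 to 0.54 for PARP1.

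With the replicate number as a block, PARP1 passed the threshold in TruSeq (-0.26, adjusted p = 0.0129), and CTC1, KMT2C, EME1, RFWD3 and SHPRH also passed.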

Other observations

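The PLATE-seq spike-in share split the libraries by replicate number. It was 0.0230 to 0.0534% of counts in replicate 1 of each of the 6 groups and 0.0002 to 0.0014% in replicate 2. SHPRH, a relative of HLTF that ubiquitinates PCNA and was named after its values were seen, was at 47.6 and 37.2 CPM in the PLATE-seq controls and 10.6 to 20.9 CPM in the 6 clone libraries, a clone-mean log2 difference of -1.55 (edgeR adjusted p = 0.132), and -0.99 against the siRNA_Control in place of the control. In TruSeq it was at 58.1, 56.5 and 49.1 CPM in the controls and 48.0, 42.0 and 38.9 CPM in clone 1, a log2 fold change of -0.35 (adjusted p = 0.0903).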
